A study of Drosophila melanogaster with 6 samples.

Results

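The nuclear genes for subunits of oxidative phosphorylation were followed in whole adult Drosophila melanogaster of the strains Canton-S and D18. They were chosen by name from the annotation of the array: a probe set had to name 1 gene, whose current symbol is a subunit symbol of the ND-, UQCR-, COX or ATPsyn series or is RFeSP, Cyt-c1, ox, SdhA to SdhD or blw. A probe set is a group of short oligonucleotides on the array that is read as 1 value. This rule found 61 genes on 70 probe sets, out of 11953 named genes and 18769 probe sets tested. Of the 61 genes, 26 belong to complex I, 3 to complex II, 9 to complex III, 8 to complex IV and 15 to complex V. For 11 of them the symbol is that of another gene, or an older name of it, followed by L, L1 or L2, as in COX4L beside COX4 and ATPsynepsilonL beside sun, and these are called the L genes here. The other 50 are called the main genes. A further 14 genes fit the names but have no probe set that names them alone and are not analysed here: ND-23, ND-24, ND-30, ND-49, ND-49L, ND-AGGG, ND-B15 and ND-MWFE of complex I, SdhA of complex II, UQCR-6.4L, UQCR-C1 and UQCR-C2 of complex III, COX6B of complex IV and ATPsynG of complex V.

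Oxidative phosphorylation is the last stage of respiration, in the inner membrane of the mitochondrion. Complexes I and II take electrons from NADH and succinate, complex III passes them from ubiquinol to cytochrome c, and complex IV hands them to oxygen. Complexes I, III and IV pump protons as they do so, and complex V, the ATP synthase, lets the protons flow back and makes ATP. Most subunits are encoded in the nucleus and the rest in the mitochondrial genome, and flight muscle is among the richest insect tissues in them. Drosophila carries second copies of many of these genes, a good part of which are known for expression in the testis.

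The strains were compared on GeneChip Drosophila Genome 2.0 arrays. Each strain had 3 arrays, hybridized with RNA of separate biological repeats. Canton-S came from flies of North America and D18 (Domodedovo 18) from flies of the Moscow region, and both are wild type laboratory lines kept for decades, so that each strain is represented by 1 inbred line. Both were reared at 25 °C. The labels give an age of 3 days and 250 ng of total RNA per array, and the methods give 15 flies of both sexes at 2–3 days. Values are on the log2 scale, as made by the authors with the RMA algorithm, so that a difference of 1 is a 2-fold difference. Over all probe sets they ran from 0.98 to 14.07, with a lower quartile of 2.96 to 3.09, a median of 4.92 to 5.58 and an upper quartile of 7.72 to 7.94 on the 6 arrays. Brightness also depends on the oligonucleotides of a probe set, so that levels are not set against each other between genes.

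Within each strain, 1 array differed widely from the other 2 in markers of the reproductive organs. The median of 21 measured testis genes (of 23 listed) stood at 9.75 in replicate 3 of Canton-S and at 9.62 in replicate 2 of D18, and at 2.61 to 2.77 on the other 4 arrays. The median of 11 male accessory gland genes (of 12) was 11.40 and 11.17 on these arrays against 2.21 to 2.58, and that of 8 Y-linked genes (of 11) was 4.19 and 4.24 against 1.58 to 1.72. Yolk and eggshell genes (13 of 16) went the other way, with medians of 4.35 and 3.82 against 11.66 to 13.05, as did ovary genes (14 of 15), with 3.75 and 4.0 against 8.81 to 9.71. Canton-S replicate 3 and D18 replicate 2 are called the pair below. The pair was set from values of these arrays and its strains are 1 array each, so differences between the pair and the other arrays are given as a description, with no test. In whole flies, fewer cells of a type and less RNA per cell cannot be told apart. The methods give flies of both sexes, and the labels give no sex for any array. On the 4 arrays outside the pair, the testis, accessory gland and Y-linked medians lay below 2.96, the lowest lower quartile of an array. On the pair these were higher, and yolk, eggshell and ovary medians were far lower. A like mix of both sexes on every array therefore cannot be assumed, and the sex of the flies was not tested.

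The first question was whether the genes differed between the strains. Only 1 probe set did at the thresholds used. At the thresholds of the methods (more than 2-fold with an unadjusted p under 0.01), 1 of the 70 probe sets passed (1.43%), where 239 of all 18769 passed (1.27%). This was a probe set of RFeSP, higher in Canton-S, where 1.08% of all probe sets passed in that direction. None of the 70 passed in the other direction, higher in D18, where 0.192% of all probe sets did. At a Benjamini-Hochberg adjusted p under 0.05 in limma, 0 of the 70 passed and 7 of all probe sets did (0.0373%), and 1 of the 70 had an unadjusted p under 0.05. The values of the strains did not overlap for 1 of the 70 (1.43%), again the probe set of RFeSP, and for 8.01% of all probe sets.

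Taken by gene, with the brightest probe set for a gene that has several, 29 of the 61 were higher in Canton-S by mean and 32 in D18. The median difference, Canton-S minus D18, was -0.01 over the 61 genes and -0.05 over all probe sets. For 60 of the 61 the difference was within 0.5 of 0 in either direction, and 85.4% of all probe sets were. The exception was ND-B8, at -0.60. The precision differed between the main genes and the L genes. The median standard error was 0.28 for the 50 main genes and 1.98 for the 11 L genes, and 0.34 for all probe sets. For 43 of the 50 main genes the 95% interval of the difference stayed within 2-fold in both directions. It did so for 0 of the 11 L genes in this model, whose residual holds the step between the pair and the other arrays described below. With a block for the kind of array it did so for all 11, with a median standard error of 0.20, no bound beyond -0.87 or 0.77 and a lowest adjusted p of 0.313 in limma, and for 49 of the 50 main genes, all but ND-B8. That block was set from values of these arrays, and its model takes the strain difference as the same in both kinds of array. The narrower intervals hold only on those terms. The strain differences of the L genes were -0.59 to 0.50 among the other 4 arrays and -0.77 to 0.61 within the pair.

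**Figure D1:**
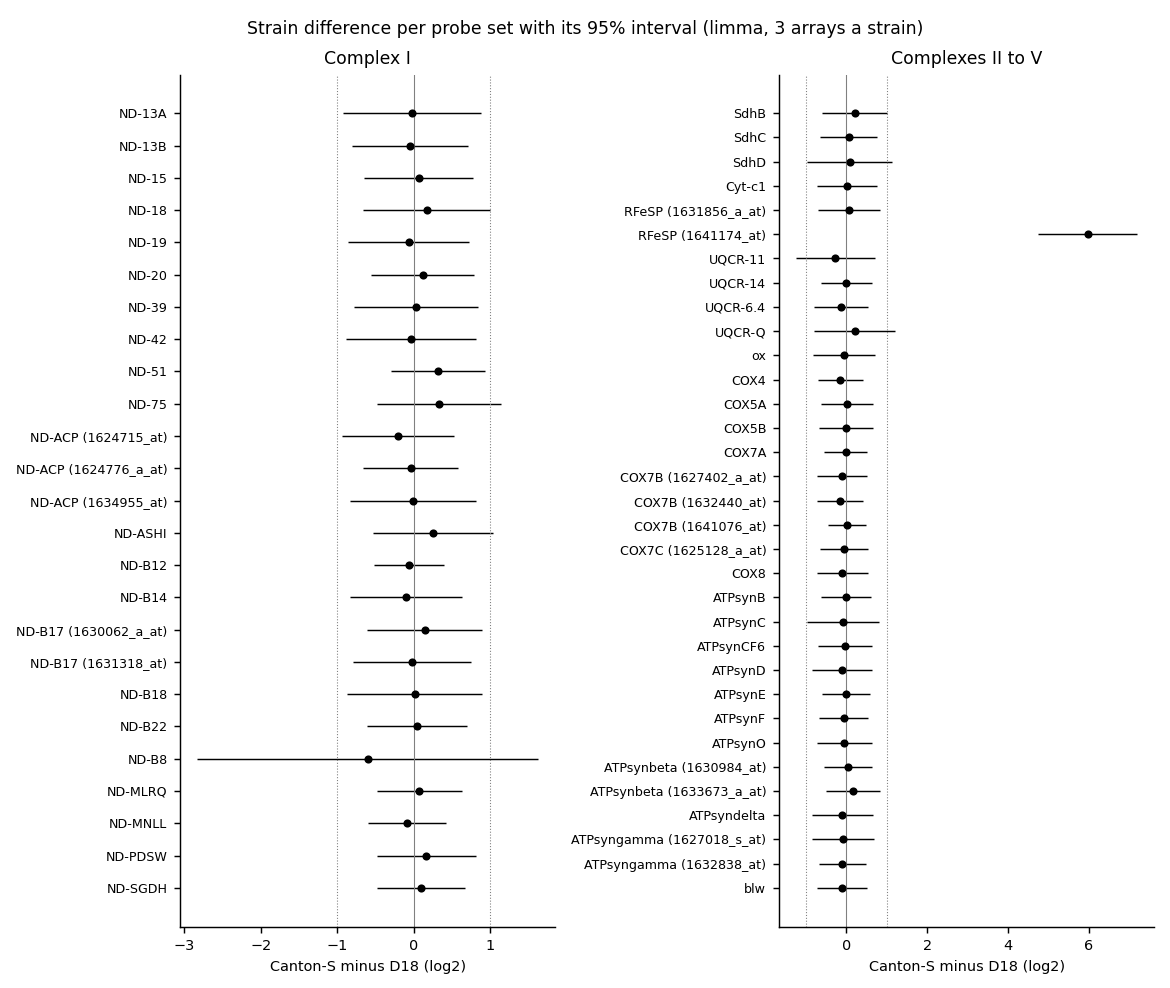
Strain difference (Canton-S minus D18, log2) of the probe sets of the main genes, with 95% intervals from limma over 3 arrays a strain. The second probe set of COX7C is left out, and dotted lines mark 2-fold. Only RFeSP 1641174_at, at 5.97, has an interval that excludes 0, and ND-B8 has the widest interval, from -2.83 to 1.63.

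Complex III held the 1 probe set that passed. RFeSP encodes the Rieske iron–sulfur protein, which takes electrons from ubiquinol on their way to cytochrome c1, and lies on chromosome 2L. Its probe set 1641174_at read 10.19, 9.08 and 8.83 on the Canton-S arrays 1 to 3 and 3.63, 2.72 and 3.85 on the D18 arrays. All Canton-S arrays were far above all D18 arrays. The means were 9.37 ± 0.72 and 3.40 ± 0.60 (SD, n = 3 each), a difference of 5.97 with a standard error of 0.49 and a 95% interval of 4.75 to 7.19, or 62.6-fold. The limma p was 3.27e-05 and its Benjamini-Hochberg adjusted p 0.0502, and over 15 other settings the adjusted p ran from 0.00369 to 0.773, with the thresholds of the methods passed in each of the 15. The D18 values are close to the lower quartile of all probe sets, so the fold depends on how the lowest values were read. The difference was 6.11 within the pair and 5.90 within the other 4 arrays.

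The other probe set of RFeSP, 1631856_a_at, read 11.50, 10.51 and 11.01 in Canton-S and 10.93, 11.13 and 10.77 in D18. Here the strains overlapped, with a difference of 0.06 (95% interval -0.71 to 0.83, adjusted p = 1 in limma). The gap between the probe sets was thus 1.31, 1.43 and 2.18 on the Canton-S arrays and 7.30, 8.41 and 6.92 on the D18 arrays. RefSeq lists 3 transcripts of RFeSP, and in the Release 6 assembly the gene overlaps CG14352. Which of these the probe sets match, and whether a sequence difference of a strain lies under one of them, was not tested. The paper lists quantitative RT-PCR primers for RFeSP. It reports that RT-PCR gave the same picture as the arrays for the genes it checked, apart from ELOVL. Its text gives no RT-PCR value for RFeSP, and where the primers lie relative to the probe sets was not tested.

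**Figure D2:**
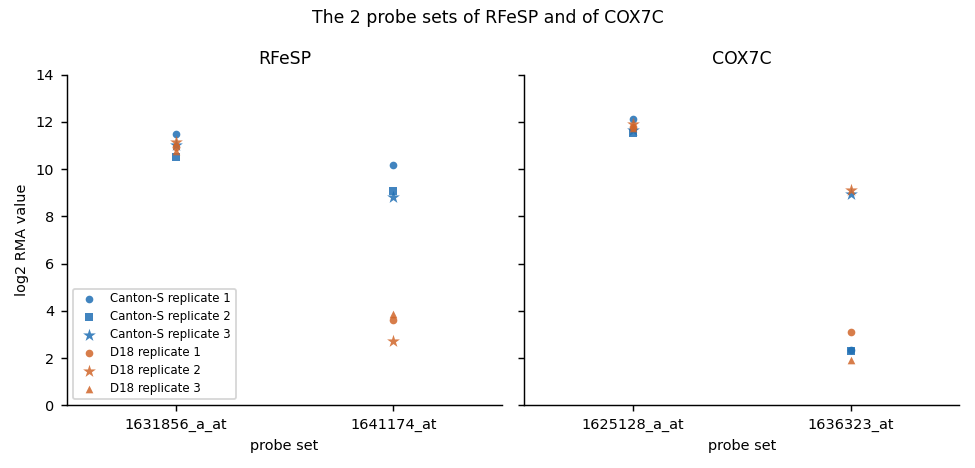
Log2 RMA values of both probe sets of RFeSP and of COX7C on the 6 arrays, with Canton-S in blue, D18 in orange and stars for the pair. RFeSP 1641174_at separates the strains (8.83 to 10.19 against 2.72 to 3.85), and COX7C 1636323_at separates the pair from the other arrays (8.95 and 9.12 against 1.92 to 3.1).

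The rest of complex III showed no strain difference that passed. Cyt-c1 (cytochrome c1, which receives the electrons of the Rieske protein) differed by 0.02, ox by -0.05, UQCR-6.4 by -0.13 and UQCR-14 by 0.01, the narrowest of the complex. UQCR-Q read 10.28, 9.60 and 10.57 in Canton-S and 9.82, 10.54 and 9.46 in D18, a difference of 0.21 (95% interval -0.79 to 1.21). UQCR-11 read 4.81, 4.15 and 3.53 against 4.52, 4.08 and 4.70, a difference of -0.27 (-1.24 to 0.70), and was below the median of every array.

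In complex I, the entry point for NADH, ND-B8 and ND-75 differed most. ND-B8 read 7.45, 4.47 and 7.52 in Canton-S and 6.65, 7.51 and 7.08 in D18. Canton-S replicate 2 alone lay below the rest, and the strains overlapped (difference -0.60, 95% interval -2.83 to 1.63, adjusted p = 1 in limma). In the Release 6 assembly ND-B8 overlaps the gene Gs1l. ND-75, a large iron–sulfur subunit, read 9.88, 9.04 and 9.50 against 8.85, 9.57 and 9.0 (0.33, -0.47 to 1.14). The lowest unadjusted p of the 69 probe sets other than RFeSP 1641174_at was 0.245, for ND-51, the flavin-binding subunit, at a difference of 0.32 (-0.30 to 0.94). Its values were 11.31, 10.70 and 11.20 in Canton-S and 10.67, 10.63 and 10.95 in D18. The narrowest difference was that of ND-ACP, the acyl carrier protein, at -0.00 on its brightest probe set (-0.83 to 0.82), with -0.04 and -0.20 on its other probe sets. The remaining 18 main genes of complex I lay between -0.10 (ND-B14) and 0.25 (ND-ASHI). ND-B12, at 3.86 to 4.17, was below the median of every array.

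The 3 measured genes of complex II, which is also the succinate dehydrogenase of the tricarboxylic acid cycle, did not pass either threshold between the strains. SdhB, the iron–sulfur subunit, read 10.80, 9.94 and 10.60 against 9.86, 10.36 and 10.49 (difference 0.22, 95% interval -0.59 to 1.02). The membrane anchors SdhD and SdhC differed by 0.08 (-0.96 to 1.12) and 0.06 (-0.64 to 0.77). None of these had an unadjusted p under 0.05.

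In complex IV, cytochrome c oxidase, the widest differences were those of COX7B at -0.16 (95% interval -0.73 to 0.42) and of COX4 at -0.14 (-0.70 to 0.41). COX7B read 12.29, 11.77 and 11.85 in Canton-S and 12.04, 12.32 and 12.01 in D18. Another of its 3 probe sets, 1641076_at, read only 2.75 to 3.08 and is dim on all arrays. COX5B, with 11.87, 11.07 and 11.26 against 11.32, 11.51 and 11.36, had the narrowest difference of all members (0.00, -0.67 to 0.67). COX5A, COX7A, COX7C and COX8 lay between -0.09 and 0.02. All 7 main genes of the complex had intervals within 2-fold.

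In complex V, the 11 main genes lay between -0.11 (ATPsynD) and 0.17 (ATPsynbeta), and all 11 had intervals within 2-fold. ATPsynbeta, the catalytic subunit, read 13.02, 12.46 and 12.28 in Canton-S and 12.36, 12.28 and 12.62 in D18. Its partner in the catalytic head, blw (the alpha subunit), read 12.81, 12.33 and 12.25 against 12.51, 12.80 and 12.38 (-0.10, -0.72 to 0.52). ATPsynB, a subunit of the peripheral stalk, had the narrowest difference at -0.01. The widest differences of the complex were those of the L genes ATPsynGL (-0.49, -6.00 to 5.03) and ATPsynepsilonL (0.24, -2.34 to 2.82), whose values on the pair lie far from the other arrays. No gene with several probe sets had strain differences of more than 0.5 in opposite directions.

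The second question was how the genes behaved on the pair against the other 4 arrays. A probe set was counted as above on the pair where both its arrays lay above all 4 others and the means were more than 2-fold apart, and as below in the same way. This held upward for 13 of the 70 probe sets (18.6%) and 13.2% of all probe sets, and downward for 0 of the 70 and 16.8% of all probe sets. By gene these were all 11 L genes and 1 main gene, ND-B8. The remaining probe set was the second one of COX7C. On the pair the L genes read 6.80 to 10.57 and on the other arrays 2.28 to 4.99, so that no value of one kind reached the other.

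Complex IV had the widest of these differences. COX4L read 2.55 and 2.58 on Canton-S replicates 1 and 2 and 10.40 on replicate 3, and 2.32 and 2.54 on D18 replicates 1 and 3 and 10.57 on replicate 2. It was 7.99 higher on the pair. Its values outside the pair lie below the lower quartile of all probe sets, so the size of this difference depends on how the lowest values were read, as it does for the other dim L genes. COX4 itself read 11.28 to 11.83 on all arrays and was 0.02 higher on the pair by mean. The second probe set of COX7C, 1636323_at, read 2.36 and 2.31 against 8.95 in Canton-S and 3.1 and 1.92 against 9.12 in D18, a difference of 6.62. The first, 1625128_a_at, read 11.50 to 12.13 and differed by -0.02. The next gene after COX7C in the Release 6 assembly is COX7CL, which no probe set names, and which of them 1636323_at matches was not tested.

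In complex V, ATPsynCF6L read 2.28 and 2.77 against 9.32 on the pair's array of Canton-S, and 2.92 and 2.80 against 9.11 on that of D18, a difference of 6.52. ATPsynCF6, a coupling factor subunit, read 11.50 to 12.24 and differed by -0.17. ATPsynGL read 3.27 and 3.08 against 8.82, and 3.85 and 3.67 against 9.10 (5.49). ATPsynbetaL read 4.50 and 4.06 against 7.71, and 4.29 and 4.44 against 7.23 (3.15), where ATPsynbeta was lower on the pair by 0.34 (12.28 and 12.28 against 12.36 to 13.02). ATPsynepsilonL had the smallest difference of the L genes, with 4.53 and 4.44 against 6.99 and 4.36 and 4.08 against 6.80 (2.54). Its counterpart sun, the epsilon subunit, was dim on all arrays (3.14 to 3.46).

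In complex III, UQCR-14L read 3.07 and 3.01 against 8.37 in Canton-S and 3.22 and 3.15 against 8.04 in D18, 5.09 higher on the pair. UQCR-14 read 11.46 to 12.17 and differed by -0.08. UQCR-11L read 4.33 and 4.21 against 8.72, and 3.88 and 3.67 against 9.49 (5.08). UQCR-11 went the other way, with 3.53 and 4.08 on the pair against 4.15 to 4.81, a mean difference of -0.74 under 2-fold.

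In complex I, ND-24L read 2.99 and 3.87 against 8.28, and 3.55 and 3.41 against 8.43, a difference of 4.90. ND-20L read 4.64 and 4.41 against 8.26, and 4.48 and 4.99 against 7.66 (3.33), while ND-20, an iron–sulfur subunit, read 10.47 to 11.31 and differed by -0.14. ND-51 has a pair of L genes. ND-51L1 read 4.03 and 4.11 against 6.94, and 4.07 and 3.92 against 7.62 (3.25). ND-51L2 read 3.86 and 3.90 against 7.01, and 4.24 and 4.22 against 7.24 (3.07), and ND-51 itself differed by 0.01. Both arrays of ND-B8 on the pair (7.52 and 7.51) were barely above Canton-S replicate 1 (7.45), and its mean difference of 1.10 rests on the 4.47 of Canton-S replicate 2: the mean of the other 3 arrays outside the pair was 7.06, under 2-fold from the pair.

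For 8 of the 11 L genes the gene without the L is itself a member, 7 such genes in all. They differed between the pair and the others by -0.74 to 0.02, and 0 of the 7 were set apart. Whether the oligonucleotides of an L gene also bind RNA of its counterpart was not tested. The direction of the L genes was the same under each scaling tried: all 11 were higher on the pair with the deposited values, after quantile normalization and with arrays moved to a common median. None of the 11 lies on the X chromosome, where 8 of the 50 main genes and 15.8% of all named genes lie. Of 9 further subunit genes with a final L that the naming rule does not take, 1 lies there (SdhBL). The testis and accessory gland medians given above moved with the L genes, and the part of such tissue in the difference was not tested.

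**Figure D3:**
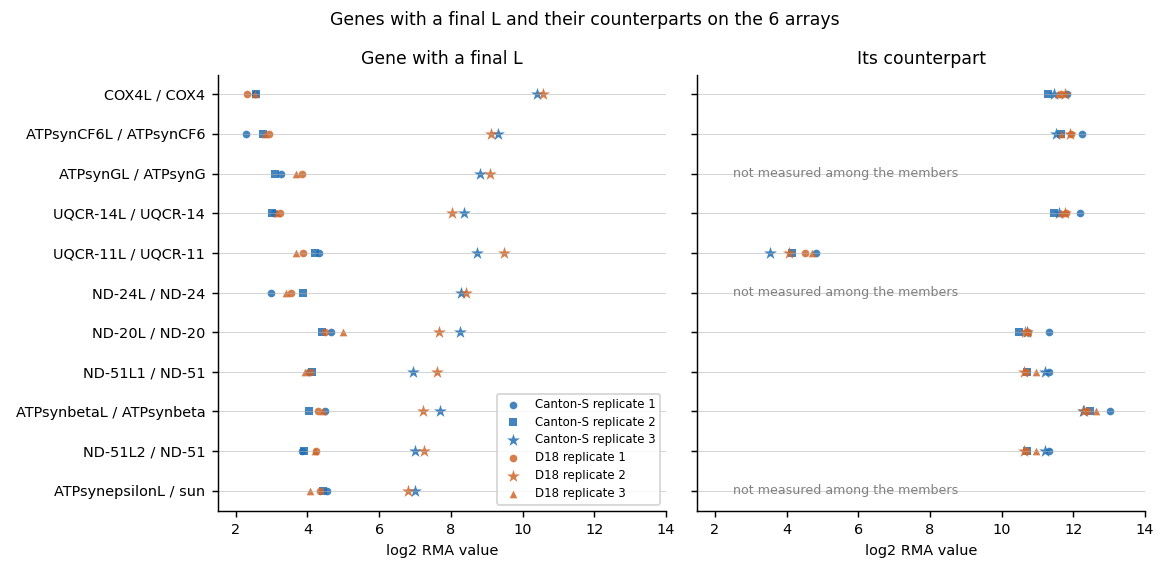
Log2 RMA values of the 11 L genes (left) and of the genes without the L (right) on the 6 arrays, ordered by the difference on the left, with stars for the pair. The stars on the left lie between 6.80 and 10.57 and the other points between 2.28 and 4.99. The right side holds values for 8 of the 11. There the mean of the stars differs from that of the other points by -0.74 to 0.02. For UQCR-11 and ATPsynbeta both stars lie below the other points.

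The 50 main genes lay close together on the arrays. For 47 of them every value was above the upper quartile of its array. The median range over the 6 arrays was 0.80, against 1.15 for all probe sets and 1.05 for the 1785 with a mean above 9. It was 0.59 in complex IV, 0.74 in complex V, 0.86 in complex I, 0.90 in complex III and 0.95 in complex II. The difference between the pair and the others had a median of 0.05, against -0.33 for all probe sets and -0.19 for those with a mean above 9. After quantile normalization the medians of the main genes and of all probe sets were 0.00 and -0.27, and with a common median -0.41 and -0.80. The direction of the main genes thus depends on the scaling, while their position above the median of all probe sets does not. By complex the medians of the deposited values were 0.06 in I, 0.21 in II, 0.13 in III, -0.00 in IV and -0.06 in V. The 8 main genes on the X had a median of -0.07 and the 42 on autosomes 0.06. Both arrays of the pair were above all others for ND-B8, ND-B12 and UQCR-Q and below all others for UQCR-11, COX7A and ATPsynbeta, whatever the size.

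**Figure D4:**
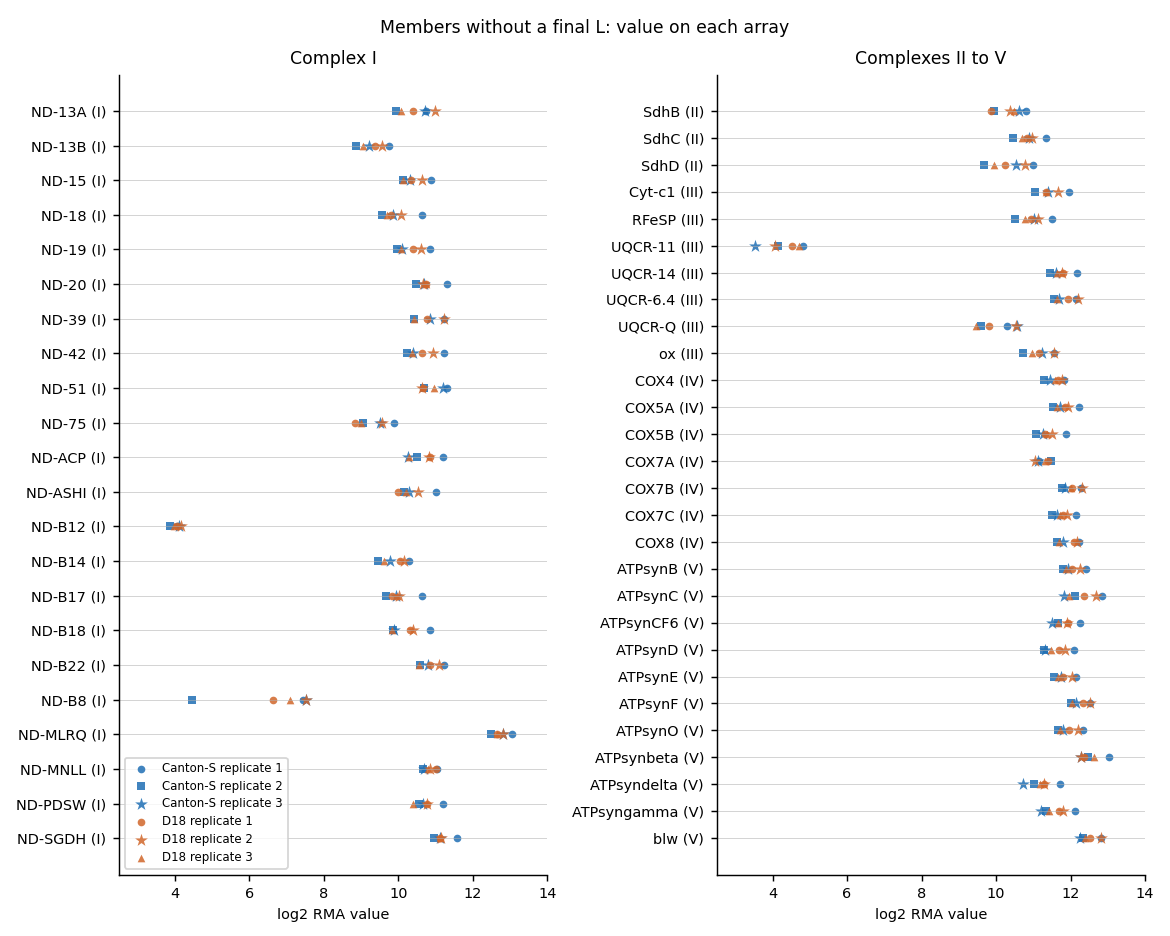
Log2 RMA values of the 50 main genes on each of the 6 arrays by complex, on the brightest probe set of each gene. Apart from ND-B12, ND-B8 and UQCR-11, every gene lies above the upper quartile of each array, and Canton-S replicate 1 (blue circle) is the highest for 42 of the 50.

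The main genes moved together from array to array within a strain. Of the 50, 42 were highest on Canton-S replicate 1, where 16.1% of all probe sets and 21.8% of those with a mean above 9 were highest. After quantile normalization this held for 33 and with a common median for 31 of the 50. On Canton-S replicate 2, 33 of the 50 were lowest and 1 was highest, where 7.69% of all probe sets were lowest and 13.2% highest. Of the probe sets with a mean above 9, 7.06% were lowest there and 22.9% highest. The median deviation from the mean of a gene over the 6 arrays was 0.44, -0.29 and -0.11 on Canton-S replicates 1 to 3 and -0.00, 0.20 and -0.18 on D18 replicates 1 to 3. Complex I had 0.47 and -0.29 on Canton-S replicates 1 and 2, complex III 0.43 and -0.41, and complex IV 0.29 and -0.28, so that the spread was narrowest in complex IV of these. COX7A was the 1 gene that was highest on Canton-S replicate 2 (11.46, against 11.03 to 11.39).

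The median strain difference of the main genes had opposite signs within the pair and outside it. Among the 4 other arrays 44 of the 50 main genes were higher in Canton-S by mean (median 0.15), and within the pair 44 were lower in Canton-S (median -0.28). For 40 of the 50 both held. The share of all probe sets for which both held was not counted, so these counts cannot be called particular to the main genes. Nor were the signs counted under other scalings. Over all arrays the median strain difference of the main genes was -0.01 as deposited. It was -0.10 after quantile normalization and -0.17 with a common median. The pair compares 1 array with 1, so the sign of a difference there has no replicate check. The difference between both values was not tested. Outside the pair the Canton-S arrays lay apart, with median deviations from the gene mean of 0.44 on replicate 1 and -0.29 on replicate 2. On D18 replicates 1 and 3 these were -0.00 and -0.18, so the difference outside the pair rests on Canton-S replicate 1. By median, muscle, neuron and photoreceptor genes were also higher in Canton-S outside the pair and lower within it. So were testis genes (0.15 and -0.11) and tricarboxylic acid cycle genes (0.14 and -0.21). Male accessory gland, ovary and Y-linked genes kept their sign. Yolk and eggshell genes, assembly factors and genes of mitochondrial transcription and biogenesis reversed the other way. The median of 16 genes of flight and body muscle (of 20 listed) was 11.60, 9.64 and 10.53 on the Canton-S arrays and 10.31, 11.91 and 9.20 on the D18 arrays, with a strain difference of 0.73 outside the pair and -1.12 within it. Neuron genes (12 of 14) had strain differences of 0.60 outside the pair and -0.52 within it by median, and photoreceptor genes (6 of 13) 0.44 and -0.21. Neuron medians were 7.25, 6.70 and 7.69 on the Canton-S arrays and 5.87, 8.18 and 6.65 on the D18 arrays. Photoreceptor medians were 8.85, 8.52 and 9.29, and 7.53, 9.71 and 7.87. Both were lowest on D18 replicate 1, where most main genes were lowest on Canton-S replicate 2. Within each strain the muscle medians ranked the arrays in the same order as the median deviations of the main genes. Over all arrays, however, the muscle median was highest on D18 replicate 2 and lowest on D18 replicate 3. The part of these tissues in the movement of the main genes was not tested.

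**Figure D5:**
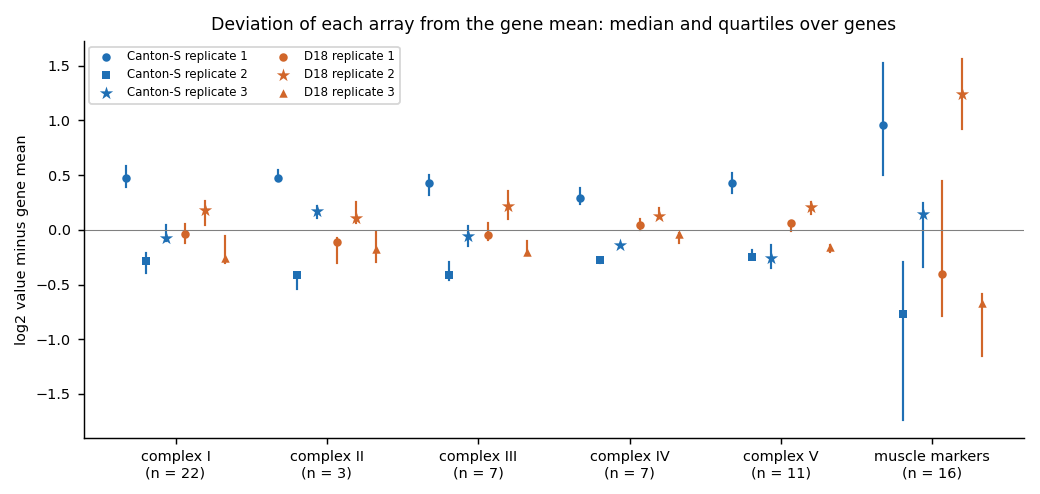
Deviation of each array from the mean of a gene over the 6 arrays (log2), as the median (symbol) and quartiles (bar) over the main genes of each complex and over the muscle markers. In each complex Canton-S replicate 1 is the highest and Canton-S replicate 2 lies below 0, and the muscle markers spread further.

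Genes around the complexes were counted by lists, 76 genes outside the members. None of the 76 passed the thresholds of the methods between the strains, 0 had an adjusted p under 0.05 in limma and 0 had an unadjusted p under 0.05, with differences of -0.72 to 0.61. The first list holds 17 measured subunit genes that the naming rule does not take. All 9 with a final L (COX5BL, COX6AL, COX6AL2, COX6CL, COX7AL, Cyt-c1L, SdhAL, SdhBL and ND-B14.5AL) were above on the pair, by 3.42 to 7.87, with at least 6.92 on the pair and at most 5.56 elsewhere. COX7AL had the widest difference, with 9.57 and 9.77 on the pair and 1.64 to 2.0 elsewhere, and COX6CL was next, with 10.31 and 10.09 and 2.83 to 3.06. The other 8 differed by -0.20 to 0.16, and 0 of the 8 were set apart.

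In the other lists, some genes above on the pair stood beside relatives that were not, and the counts are to be read against the 13.2% of all probe sets above and the 16.8% below. The lists are small, and 2 of 11 above and 1 of 11 below are near or under these shares. Of the 11 electron carriers and enzymes that feed ubiquinone, 2 were above and 1 below: the glycerophosphate oxidases Gpo3 (9.31 and 9.91 against 2.59 to 2.97) and Gpo2 (8.05 and 8.31 against 2.90 to 3.62), and Coq2 of ubiquinone synthesis (6.19 and 6.02 against 6.74 to 7.61). Of 12 genes for exchange of nucleotides, phosphate and other solutes across the mitochondrial membranes, 4 were above, with Porin2, an outer membrane channel, at 9.19 and 9.46 against 3.16 to 3.77 and Ant2, an ADP/ATP carrier, at 9.26 and 9.32 against 5.08 to 5.77. The main ADP/ATP carrier, sesB, read 12.65 to 13.51 and differed by 0.24. Of 15 genes of the tricarboxylic acid cycle, 4 were above, Fum3 and Fum4 with the widest differences (5.28 and 5.01). The fumarases Fum3 and Fum4 read 8.53 and 9.30 and 7.54 and 8.50 on the pair.

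Of 11 assembly factors, 1 was above and 2 were below. ttm3, a relative of the import protein Tim50 rather than an assembly factor in the strict sense, read 8.32 and 8.60 on the pair against 2.32 to 2.82. Bcs1, whose yeast relative inserts the Rieske protein into complex III, read 5.64 and 5.32 on the pair against 6.75 to 7.30. It differed by 0.24 between the strains (adjusted p = 1 in limma). The list for mitochondrial transcription and biogenesis, which also holds genes for replication of mitochondrial DNA, went the other way. Of its 10 genes 8 were below on the pair and 0 above, beside 16.8% and 13.2% of all probe sets, and all 10 were lower by mean under each of the 3 scalings. The mitochondrial DNA helicase (mtDNA-helicase) read 4.63 and 4.18 on the pair against 7.19 to 8.05, and the single-strand binding protein mtSSB 6.81 and 6.70 against 9.44 to 10.19. The ovary and yolk medians given above were also lower on the pair, and their part was not tested.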

How the data were processed

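Expression was measured on 6 arrays, 3 per strain. The authors background-corrected and normalized the scans with RMA at default parameters in Transcriptome Analysis Console (array design on genome Release 3.1), and the deposited values are log2 values, 1 per probe set. No further normalization was applied, and 183 control probe sets of 18952 were left out. Arrays hold no read depth, and their number limits the precision. Of 18769 probe sets, 13647 name 1 gene by the platform annotation with current symbols (12 by the annotation alone), 402 several and 4720 none. The Release 6 RefSeq table gave names, chromosome arms and neighbours.

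The strain comparison, Canton-S minus D18, used limma 3.58.1 (lmFit and eBayes, R 4.3.3) with strain as the only factor, over all 18769 probe sets, and p-values were adjusted by Benjamini-Hochberg over all of them. The script was tested on simulated data. Tables and plots used Python 3.11.15, numpy 2.4.6, pandas 2.3.3 and matplotlib 3.10.9. Genes named are those past the thresholds, in each complex the 2 with the widest and the 1 with the narrowest strain difference, those set apart on the pair with their counterparts, and up to 2 of each other list, besides RFeSP. Others were named after their values were seen. The members, the pair and the lists were chosen with earlier results of these data known. The alternatives were a replicate block, a block for the kind of array, quantile normalization, a common median, an intensity trend, no moderation, removal of the dimmest 40% of probe sets, probe sets that match 1 transcript, each array left out in turn and both arrays of the pair left out.

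Per the methods, extractions of the 2 strains went in parallel, with 1 week between repeats. The labels do not tie the replicate number to the week, so it enters only as a block in an alternative. Promoter motifs and protein identity between members, which had been planned, and probe sequences were not analysed here.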

Additional observations from a re-analysis of the deposited data

How the results depend on the processing

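The probe set RFeSP 1641174_at was the 1 member past the thresholds of the methods in each of 15 alternatives, with a strain difference of 5.56 to 6.24. The count of members at an adjusted p under 0.05 in limma changed: it was 0 with strain alone, and 1, this probe set, with a block for the kind of array (adjusted p 0.00369), with the filter on low values (0.0481) and without both arrays of the pair (0.0212). With the replicate block, 1 member passed the thresholds and 0 an adjusted p under 0.05, where RFeSP 1641174_at had 0.773, and of all probe sets 92 and 0 passed, with 373 at an unadjusted p under 0.05. Deviations from the strain means were correlated between same-numbered arrays. Over all probe sets this gave 0.777 (number 1), -0.930 (number 2) and -0.861 (number 3). Of the 6 arrays, 1 correlated best with its own number. The pair bears number 3 in Canton-S and number 2 in D18, and its step enters these deviations. For this reason the correlations cannot tell whether the numbers pair the arrays. With 1 array left out the counts stayed at 1 and 0, the median strain difference of the members ran from -0.17 to 0.20, RFeSP 1641174_at from 5.56 to 6.24 (47.1- to 75.5-fold, adjusted p 0.158 to 0.362) and RFeSP 1631856_a_at from -0.18 to 0.31. The median strain difference was -0.10 after quantile normalization and -0.17 with a common median, under the spread of 0.30 between arrays. The counts set apart on the pair kept within 1.5 times their value in each of 6 alternatives. Over all probe sets, 447 passed the thresholds and 95 an adjusted p under 0.05 with the block for the kind of array, against 239 and 7 with strain alone. That block was set from values of these arrays, which limits what its adjusted p can show. Promoter motifs and protein identity were not run.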

Other observations

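Probe sets that name a member together with another gene were left out of the counts and read as follows. The probe set of ATPsynG and beat-Vb read 12.08, 11.45 and 11.67 in Canton-S and 12.02, 12.34 and 11.85 in D18. That of COX6B and CG18809 read 12.15, 11.44 and 11.56 against 11.76, 11.95 and 11.62, and that of ND-AGGG and CG40472 11.11, 10.86 and 10.66 against 10.95, 10.66 and 10.93. In all 3 the strains overlapped, and the values on Canton-S replicate 3 and D18 replicate 2 stayed close to the rest. A second probe set of blw, shared with AQP, read 9.67, 8.11 and 9.56 in Canton-S and 7.84, 9.52 and 7.81 in D18, where blw on its own probe set read 12.25 to 12.81. Which of the genes carries these values cannot be told from the array.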
